A study of Mus musculus with 4 samples.

Results

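AMPA receptor genes and genes for proteins that accompany the receptor were followed in cultured neural stem and progenitor cells in which 3 transcriptional regulators were targeted together. The 10 genes, out of 34866 identifiers in the deposited table, were Gria1, Gria2, Gria3 and Gria4, which encode the receptor subunits, Shisa6 and Shisa9, Cacng2 and Cacng4, which encode auxiliary subunits, and Nsg1 and Nsg2, which encode endosomal proteins of neurons. Each was found by matching its Ensembl identifier to its symbol in GENCODE M21. The genes were chosen by a reading of the measured fold changes between the 2 groups, in which Shisa6 and Nsg2 were past the threshold (adjusted p under 0.05). Their differences between the groups, and the number past the threshold, are therefore given as a description with no test.

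The cells came from the dorsal telencephalon of wild-type mouse embryos at E11.5, from which the cerebral cortex develops. They were infected at plating and grown for 5 days as floating neurospheres with basic fibroblast growth factor. The triple knockdown group (2 libraries) received 3 lentiviral vectors that express short hairpin RNAs, each at a multiplicity of infection of 10. These were pLV-EG-shZfp57 and pLV-EG-shZfp7, which share a backbone, and pCS-EG-shPhf21b. The shControl group (2 libraries) received the vector CS-EG-shControl alone at 30. The number of vectors and the backbone of 2 of them thus differed between the groups for every gene. All libraries carry 1 batch label, and nothing in the labels says that replicates came from separate cultures or litters, so the spread between libraries may be technical. Total estimated counts were 17901386 and 15170491 in the triple knockdown and 20779211 and 14694387 in shControl.

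The targeted genes were checked in CPM, that is, counts scaled to a common total after adjusting each library by its TMM factor. Zfp57 had 10.7 and 9.30 CPM in the triple knockdown and 14.6 and 11.8 CPM in shControl. Phf21b had 5.48 and 6.44 CPM in the triple knockdown and 7.24 and 7.35 CPM in shControl. For neither gene did the groups overlap in CPM, and 21.7% of all tested genes were likewise lower in both triple knockdown libraries. Scaled per length without TMM factors, both genes overlapped. Zfp57 then had 3.72 and 3.13 in the triple knockdown and 5.01 and 3.34 in shControl. Phf21b had 1.69 and 1.92 in the triple knockdown and 2.21 and 1.85 in shControl. Zfp7 had 1.97 and 0.976 CPM in the triple knockdown and 1.67 and 2.25 CPM in shControl, so that triple knockdown replicate 1 lay above shControl replicate 1. Their log2 fold changes were -0.40, -0.29 and -0.37, that of Zfp7 ran from -0.98 to 0.03 over 10 alternatives, and 0 of 3 passed edgeR's test (1 at an unadjusted p under 0.05; 0 in DESeq2 and limma-voom). The dorsal telencephalon markers Emx1, Emx2 and Lhx2 were detected in every library. Over all genes 76 were higher and 116 lower, against 77 and 28 with scaling by library size alone.

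AMPA receptors are tetrameric glutamate-gated channels that carry most fast excitatory transmission in the brain. Auxiliary subunits of the TARP (Cacng), cornichon and Shisa/CKAMP families bind the channel and alter its gating and its delivery to the synapse, and Nsg1 and Nsg2 act in the endosomal recycling of receptors. The subunit encoded by Gria2 makes the channel nearly impermeable to calcium, because its transcript is edited by the enzyme encoded by Adarb1 at a glutamine codon in the pore loop. In the embryonic cortex these genes are expressed in young neurons, and some of them also in glial precursors.

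The codon in question is shown because its editing in Gria2 RNA is the known basis of that property. The stretches below are 45 bases of coding sequence from GENCODE M21 transcripts (GRCm38), 5' to 3', with the glutamine codon of the editing site in capitals.
Gria1 (chr11:57243073-57243117, plus strand): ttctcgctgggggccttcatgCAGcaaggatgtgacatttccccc
Gria2 (chr3:80706890-80706934, minus strand): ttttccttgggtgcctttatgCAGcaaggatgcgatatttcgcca
Gria3 (chrX:41610244-41610288, plus strand): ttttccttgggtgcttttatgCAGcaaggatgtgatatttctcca
Gria4 (chr9:4464116-4464160, minus strand): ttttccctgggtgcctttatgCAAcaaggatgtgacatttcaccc
The genomic codon was CAG in Gria1, Gria2 and Gria3 and CAA in Gria4. Of the 45 bases, 36 in Gria1, 42 in Gria3 and 39 in Gria4 were identical to Gria2. The counts are per gene, so edited and unedited transcripts, or splice forms, were not measured. At the scale of whole transcripts the subunit genes are distinct: between 0.282% (Gria1) and 1.49% (Gria3) of their 31-base words occur in another gene.

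In GRCm38 as annotated by GENCODE M21, Gria1 (ENSMUSG00000020524.16), Shisa6 (ENSMUSG00000053930.13), Cacng4 and Nsg2 (ENSMUSG00000020297.10) all lie on chromosome 11, at 57011387 to 57330244, 66211725 to 66525964, 107732357 to 107794557 and 32000463 to 32059202. Gria2 (ENSMUSG00000033981.14) lies on chromosome 3, at 80681450 to 80802835, and Gria3 on chromosome X, at 41400854 to 41678601. Gria4 is on chromosome 9, Shisa9 on 16, Cacng2 on 15 and Nsg1 on 5.

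Promoter sequence was at hand for 4 of the 10 genes, from RefSeq (GRCm38.p6), as windows of 250 bases before to 50 bases after an annotated start. Of these, 3 are shown, Gria2 and Nsg2 as the most abundant receptor subunit and trafficking gene and Gria4 as a subunit with a fold change close to 0. Capitals mark matches to 2 motifs searched on both strands. The first is the core of the RE1 element, 14 bases long, which the repressor REST binds near neuronal genes, and the second is CAGATG, an E-box of the kind bound by proneural basic helix-loop-helix factors.
Gria2 promoter (chr3:80802786-80803085, minus strand): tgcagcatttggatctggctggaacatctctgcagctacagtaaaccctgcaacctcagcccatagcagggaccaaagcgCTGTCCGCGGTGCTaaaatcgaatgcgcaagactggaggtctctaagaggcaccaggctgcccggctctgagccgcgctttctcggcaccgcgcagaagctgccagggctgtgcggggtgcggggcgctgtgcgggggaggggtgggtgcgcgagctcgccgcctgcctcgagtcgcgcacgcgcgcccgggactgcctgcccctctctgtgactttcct
Gria4 promoter (chr9:4796185-4796484, minus strand): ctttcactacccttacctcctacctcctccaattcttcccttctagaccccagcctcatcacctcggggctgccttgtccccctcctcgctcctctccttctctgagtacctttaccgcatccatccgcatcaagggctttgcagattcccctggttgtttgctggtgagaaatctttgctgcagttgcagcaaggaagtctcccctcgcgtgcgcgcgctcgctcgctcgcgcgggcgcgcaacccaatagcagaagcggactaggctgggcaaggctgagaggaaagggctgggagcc
Nsg2 promoter (chr11:32000169-32000468, plus strand): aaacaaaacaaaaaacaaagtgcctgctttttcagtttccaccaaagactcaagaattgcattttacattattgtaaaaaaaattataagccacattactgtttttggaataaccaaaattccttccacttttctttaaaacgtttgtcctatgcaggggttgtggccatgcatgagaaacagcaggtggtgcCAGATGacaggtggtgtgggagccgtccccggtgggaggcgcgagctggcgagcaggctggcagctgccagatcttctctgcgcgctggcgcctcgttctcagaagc
The Gria2 window held an RE1 core match, on the strand opposite to the gene and starting 170 bases before the annotated start. Of 32851 windows of this length over all genes, 17 (0.0517%) held one, and the windows of Gria4, Nsg2 and Cacng2 held none. The Nsg2 window shown held 1 CAGATG, as did 17.2% of all windows, in 1 or more copies. A match describes these letters and not binding.

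Levels were compared between genes only per length, as counts per kilobase of merged exons scaled to a common library total (a TPM-like level). Nsg2 and Nsg1 were the most abundant in each of the 4 libraries. Nsg2 had levels of 39.3 and 39.2 in the triple knockdown and 63.8 and 43.2 in shControl, and Nsg1 had 33.6 and 34.6 in the triple knockdown and 50.4 and 33.3 in shControl. Gria2 followed in every library, with 6.61 and 7.25 in the triple knockdown and 7.99 and 7.48 in shControl. The order below Gria2 was Cacng4 and Cacng2, then Gria1 and Gria4, then Gria3, Shisa9 and Shisa6. Within the pairs Cacng4 with Cacng2 and Gria1 with Gria4 the order was not the same in every library, and in shControl the ranges of Cacng4 and Cacng2 stayed apart while those of Gria1 and Gria4 overlapped. Shisa6, the lowest of the 10, had levels of 0.0847 and 0.0445 in the triple knockdown and 0.291 and 0.303 in shControl.

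Gria2 supplied most of the subunit transcripts. Its share of the summed TPM-like level of Gria1 to Gria4 was 71.5% and 74.2% in the triple knockdown and 73.8% and 75.96% in shControl, so the groups overlapped on this scale. Gria1 had 10.9% and 7.71% in the triple knockdown and 9.97% and 11.51% in shControl. Gria4 had 11.2% and 11.7% in the triple knockdown and 11.3% and 8.05% in shControl. Gria3 had 6.40% and 6.44% in the triple knockdown and 4.88% and 4.48% in shControl, without overlap. These shares depend on the length used. With the longest coding transcript in place of merged exons, Gria2 had 74.3% and 76.5% in the triple knockdown and 76.9% and 78.9% in shControl, so that both triple knockdown libraries lay below both shControl libraries. With no length correction the Gria2 shares did not overlap either, at 84.8% and 86.3% in the triple knockdown and 86.4% and 87.8% in shControl.

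**Figure D1:**
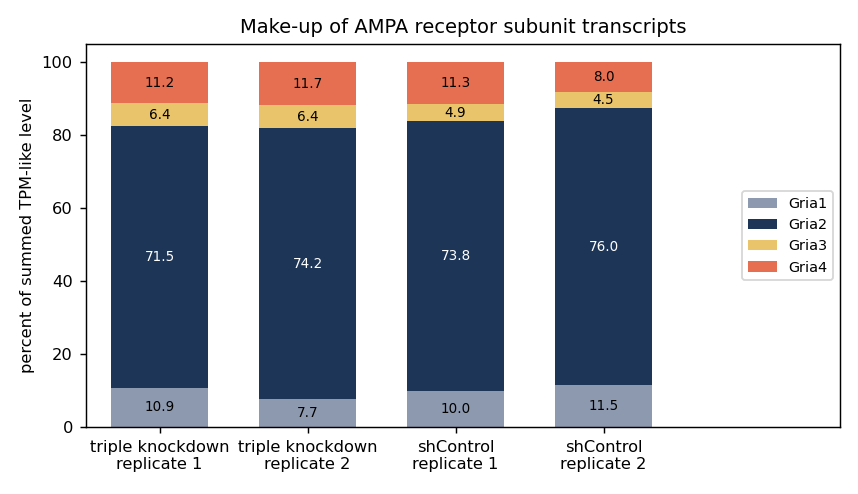
Stacked bars of the share of each AMPA receptor subunit gene in the summed TPM-like level of Gria1 to Gria4 (percent, y axis), 1 bar per library. Gria2 makes up 71.5% to 75.96% of every bar, and the Gria3 segment is larger in both triple knockdown libraries than in both shControl libraries.

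Between the groups, the fitted log2 fold change was below 0 for 8 of the 10 genes and above 0 for 2, Gria3 and Cacng2. For Gria4 it was near 0, and the mean level was 5.31 CPM in the triple knockdown and 5.30 CPM in shControl. Levels from here on are in CPM, and log2 fold changes are triple knockdown over shControl from edgeR, with the standard error (SE). Of the 10 genes, 2 were past the threshold of an adjusted p under 0.05 and lower, Shisa6 and Nsg2, where 0.826% of all 14050 tested genes were lower and 0.541% higher. Both triple knockdown libraries lay below both shControl libraries for 7 of the 10 (21.7% of all tested genes) and above them for 1 (19.6%). All 10 passed the filter on low counts, and their median log2 fold change was -0.31, beside -0.01 over all tested genes. Since the comparison itself was used to choose the genes, nothing is read from these shares. In bulk RNA, fewer cells of a type and less RNA per cell cannot be told apart.

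**Figure D2:**
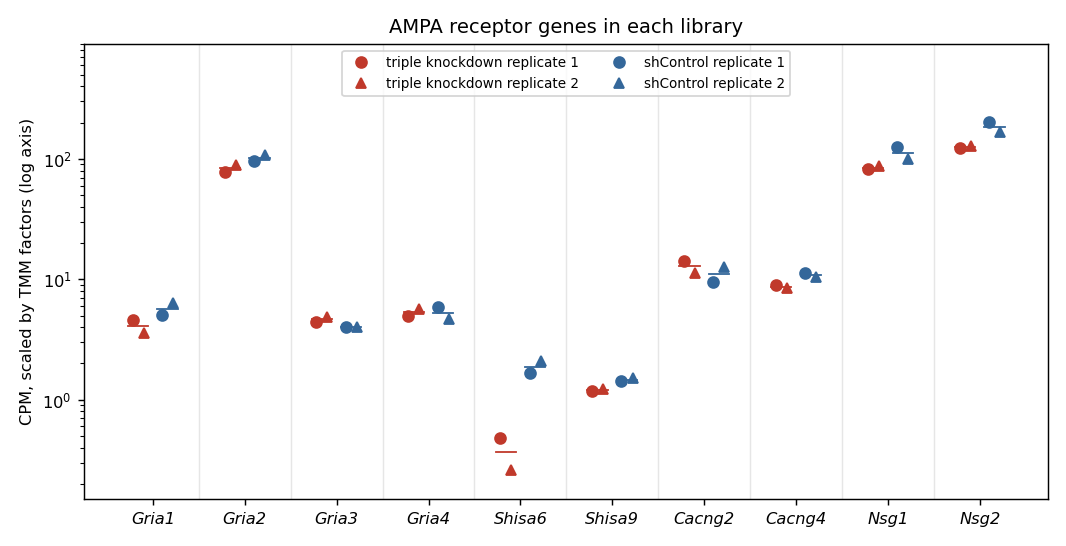
CPM of each gene (log axis) in each library, with triple knockdown in red to the left and shControl in blue to the right, and lines at the group means. The red points lie below the blue ones for 7 genes, above them for Gria3, and among them for Gria4 and Cacng2; the gap is widest for Shisa6.

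Among the subunits, Gria2 had 78.1 and 88.6 CPM in the triple knockdown and 95.4 and 108 CPM in shControl. The groups did not overlap, and the log2 fold change was -0.29 (SE 0.13), or 81.9% of the shControl level. Gria1, the subunit known for its activity-dependent delivery to synapses, had 4.63 and 3.58 CPM in the triple knockdown and 5.01 and 6.38 CPM in shControl. The groups were close but did not overlap (log2 fold change -0.45, SE 0.24). Gria3, an X-linked subunit gene, had 4.42 and 4.88 CPM in the triple knockdown and 3.99 and 4.05 CPM in shControl. It was the only gene of the 10 with both triple knockdown libraries on the higher side, by 0.21 on the log2 scale (SE 0.25), less than 1 SE. Gria4, the subunit of fast channels in many interneurons, had 4.95 and 5.66 CPM in the triple knockdown and 5.94 and 4.65 CPM in shControl. Its groups overlapped, and its log2 fold change of -0.02 (SE 0.23) became 0.18 when shControl replicate 1 was omitted and -0.15 when replicate 2 was. Summed over the subunit genes, the level was 92.1 and 102.7 CPM in the triple knockdown and 110.3 and 123 CPM in shControl. Most of this was Gria2. On the TPM-like scale the sum was 9.24 and 9.77 in the triple knockdown and 10.82 and 9.85 in shControl, so the groups were close. The log2 ratio of the mean sums was -0.26 in CPM and -0.12 on the TPM-like scale.

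Shisa6, whose product holds AMPA receptors at the synapse and limits their desensitization, showed the largest difference of the 10. It had 0.479 and 0.260 CPM in the triple knockdown, from 9 and 4 counts, and 1.67 and 2.10 CPM in shControl. The groups were far apart relative to the spread within each, with a log2 fold change of -2.28 (SE 0.54). The scaled ratio of its summed counts, 13 in the triple knockdown and 64 in shControl, was 0.208, with a 95% exact binomial interval of 0.105 to 0.381 that covers counting error only. With 1 library left out the log2 fold change lay between -2.81 and -1.95. These extremes came from omitting triple knockdown replicate 1 and replicate 2, and omitting shControl replicate 1 or replicate 2 gave -2.46 or -2.11. It was not past the threshold in any of these 4 fits, nor in DESeq2 (-2.31).

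Its relative Shisa9 (CKAMP44), known for slowing the recovery of the receptor from desensitization, was about as abundant per length as Shisa6 in shControl (TPM-like levels of 0.357 and 0.308). Shisa9 had 1.17 and 1.24 CPM in the triple knockdown and 1.44 and 1.501 CPM in shControl, which did not overlap (log2 fold change -0.28, SE 0.45). The ratio of Shisa6 to Shisa9 per length was 0.288 and 0.148 in the triple knockdown and 0.814 and 0.985 in shControl. With 41 and 51 summed counts for Shisa9 in the triple knockdown and shControl, the 95% interval of its scaled ratio ran from 0.532 to 1.27 and covers counting error only.

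Of the TARP genes, Cacng2 encodes stargazin and had 14.3 and 11.3 CPM in the triple knockdown and 9.42 and 12.8 CPM in shControl. The groups overlapped, and its log2 fold change of 0.23 (SE 0.19) lay between 0.01 and 0.46 when a library was left out. The lowest values came without shControl replicate 1 (0.01) and triple knockdown replicate 1 (0.04), and the highest without shControl replicate 2 (0.46) and triple knockdown replicate 2 (0.38). Of its exonic bases, 5.86% overlap A730060N03Rik on the opposite strand. Cacng4 encodes a TARP that is abundant in the embryonic brain and had 8.89 and 8.39 CPM in the triple knockdown and 11.2 and 10.4 CPM in shControl. Its groups did not overlap in CPM (log2 fold change -0.32, SE 0.19). They overlapped on the TPM-like scale, with 3.27 and 2.98 in the triple knockdown and 4.09 and 3.11 in shControl. The sum of Cacng2 and Cacng4 was 23.2 and 19.7 CPM in the triple knockdown and 20.6 and 23.1 CPM in shControl, which overlapped.

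The endosomal gene Nsg2 had the highest count of the 10 in every library, with 124 and 128 CPM in the triple knockdown and 204 and 167 CPM in shControl. The log2 fold change was -0.56 (SE 0.14), or 67.9% of the shControl level. The triple knockdown libraries were close together and the shControl libraries further apart, without overlap. Nsg1 had 82.1 and 87.5 CPM in the triple knockdown and 124 and 99.7 CPM in shControl (log2 fold change -0.40, SE 0.14). Nsg2 was not past the threshold with scaling by library size alone (-0.48), without shControl replicate 1 (-0.41), omitting triple knockdown replicate 1 (-0.54) or replicate 2 (-0.58), and Nsg1 was past it only without shControl replicate 2 (-0.54); without shControl replicate 1 it was -0.24. On the TPM-like scale, which applies no TMM factor, the Nsg1 groups overlapped. The Nsg1 value is uncertain for another reason as well, since 17.9% of its exonic bases overlap Stx18 on the opposite strand and no source used here gives the strand setting of the counting. Stx18 itself had 7.93 and 7.09 CPM in the triple knockdown and 7.84 and 6.83 CPM in shControl.

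**Figure D3:**
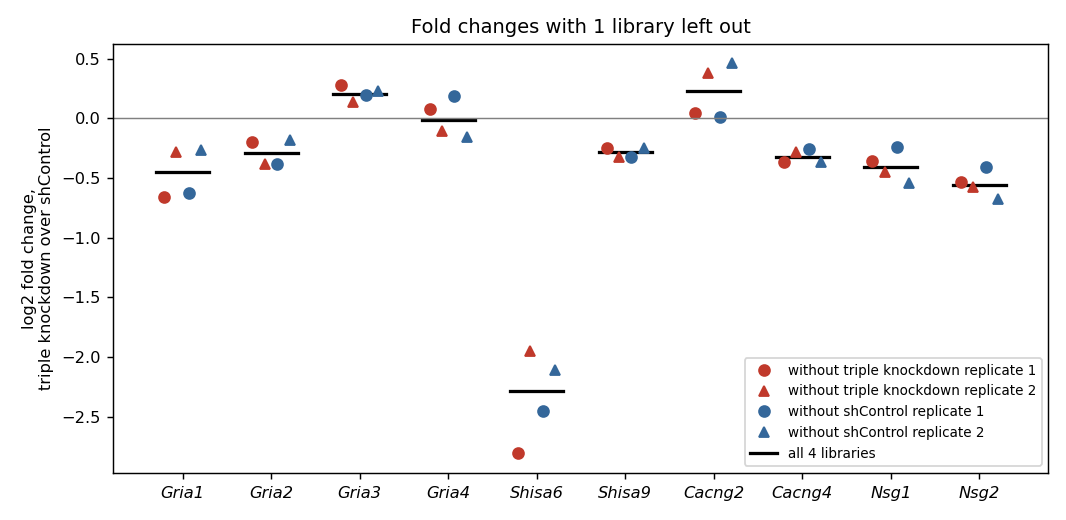
Log2 fold change of each gene, triple knockdown over shControl, with all 4 libraries (black line) and with each library left out (points). Shisa6 stays between -2.81 and -1.95 and Nsg2 between -0.68 and -0.41, while the points of Gria4 fall on both sides of 0 and those of Cacng2 reach down to 0.01.

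Auxiliary proteins of the receptor outside the 10 genes were described from a separate list of 15 genes, with further TARPs, cornichons, Shisa proteins and factors of receptor assembly. Of 12 tested members 2 fell, Cacng7 and Cnih2, and 10 did not pass the test, where 0.826% of all tested genes were lower. Both triple knockdown libraries lay below both shControl libraries for 7 of the 12, and for 21.7% of all tested genes. Like the other lists, this one was chosen with earlier results of these data known, so nothing is read from these shares. Cacng7 encodes TARP gamma-7 (ENSMUSG00000069806.5, chromosome 7, 3332955 to 3368221, GRCm38) and had 26.8 and 25.8 CPM in the triple knockdown, against 45.7 and 44.1 CPM in shControl. In CPM the difference was many times the spread within either group, with a log2 fold change of -0.77 (SE 0.15, edgeR adjusted p = 0.00036). On the TPM-like scale Cacng7 had 14.5 and 13.5 in the triple knockdown and 24.4 and 19.4 in shControl. There the groups did not overlap either, but the shControl libraries were further apart. Cnih2 encodes cornichon-2, which slows receptor deactivation and promotes export from the endoplasmic reticulum (ENSMUSG00000024873.6, chromosome 19, 5092868 to 5098521). It had 25.9 and 26.0 CPM in the triple knockdown, against 42.8 and 40.2 CPM in shControl, with a log2 fold change of -0.68 (SE 0.15; edgeR adjusted p = 0.00321). Both calls were lost when only library size was used for scaling and when either triple knockdown library was omitted. There the Cacng7 log2 fold change was -0.69, -0.80 (omitting replicate 1) and -0.74 (omitting replicate 2), and that of Cnih2 -0.60, -0.68 and -0.68. Over 10 alternatives the adjusted p ran from 3.14e-05 to 0.109 for Cacng7 and from 0.000331 to 0.246 for Cnih2.

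The other members of that list had lower counts. Prrt2, a presynaptic and receptor-associated membrane protein, had 0.798 and 1.37 CPM in the triple knockdown and 2.32 and 2.25 CPM in shControl (log2 fold change -1.10, edgeR adjusted p = 0.199), and is uncertain because 87.4% of its 31-base words occur in another gene. For Cpt1c, a regulator of receptor synthesis, the log2 fold change was -0.42 (edgeR adjusted p = 0.297). For Caly, a further member of the Nsg family, it was -0.24 (edgeR adjusted p = 0.668). Cnih3 (-0.03) and Gsg1l (-0.00) were near 0, and Syndig1 had the only positive value, 0.13. Cacng3, Cacng5 and Shisa8 had at most 12 counts in a library and were not tested. The list's median was -0.26. The difference in fold change between Cacng7 or Cnih2 and their relatives was not tested.

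**Figure D4:**
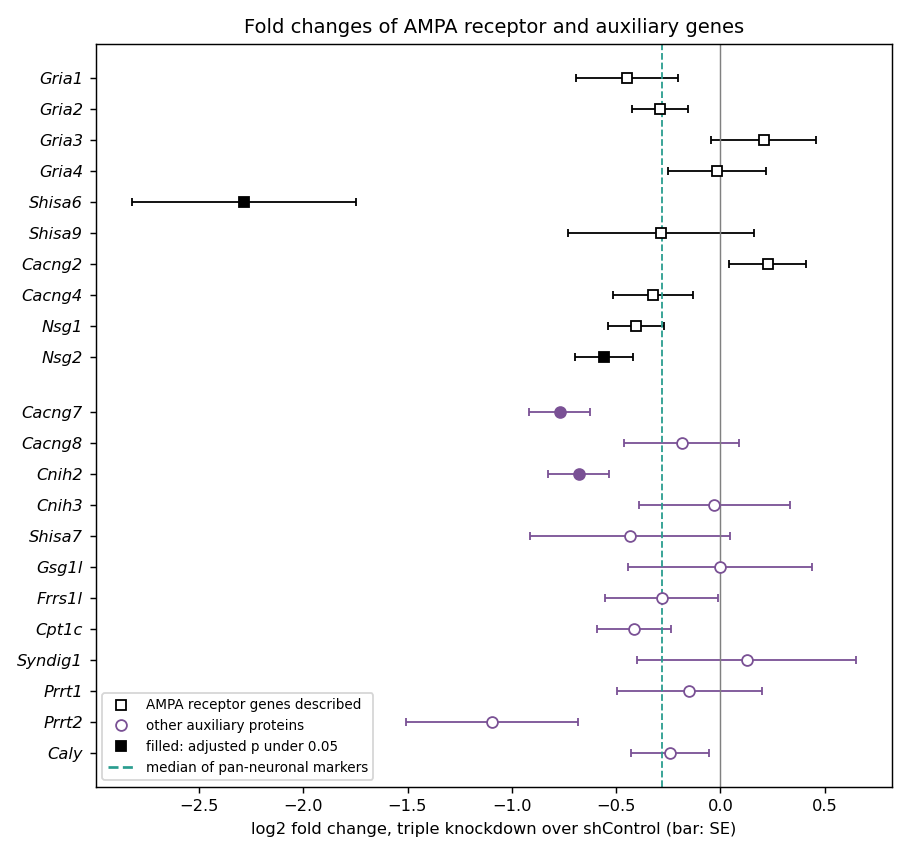
Log2 fold changes, triple knockdown over shControl, with SE, for the 10 AMPA receptor genes (squares) and 12 tested auxiliary genes (circles); filled symbols had an edgeR adjusted p under 0.05, and the dashed line is the median of 15 pan-neuronal markers (-0.28). Shisa6, Nsg2, Cacng7 and Cnih2 are filled and lie to the left of that line.

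Of 24 tested partners of receptor synthesis, anchoring and clustering 1 fell, 0 rose and 23 did not pass in edgeR's test, where 0.826% of all tested genes were lower. At an unadjusted p under 0.05, 4 of the 24 were lower and 1 higher, beside 1685 of all 14050 tested genes in either direction; limma-voom gave 1 lower and DESeq2 0. Olfm2, a secreted olfactomedin found in AMPA receptor complexes, fell to 6.33 and 5.01 CPM in the triple knockdown, against 11.4 and 9.83 CPM in shControl (log2 fold change -0.90, SE 0.21; edgeR adjusted p = 0.00626). Its call was lost in DESeq2 (-0.89), with library size alone (-0.82), omitting triple knockdown replicate 1 (-1.09) or replicate 2 (-0.75), with adjusted p from 0.00061 to 0.349 over 10 alternatives. The scaffold gene Dlg4, which encodes PSD-95, had 19.0 and 17.8 CPM in the triple knockdown and 29.3 and 21.9 CPM in shControl (log2 fold change -0.48, edgeR adjusted p = 0.128). Grip1, which anchors the subunits encoded by Gria2 and Gria3, had 12.8 and 11.6 CPM in the triple knockdown and 9.05 and 9.91 CPM in shControl (0.37, adjusted p = 0.42). The list's median was -0.19.

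Other transmitter receptors, calcium channel subunits and RNA editing enzymes had no call. Over these 7 lists, 0 of 51 tested genes passed edgeR's test, and DESeq2 and limma-voom also called 0. At an unadjusted p under 0.05, 1 was higher and 6 lower, beside 1685 of all 14050 tested genes in either direction. Median log2 fold changes were -0.04 for kainate and 0.08 for NMDA receptor genes. Among their most abundant genes, Neto2, an auxiliary subunit of kainate receptors, had 19.9 and 20.1 CPM in the triple knockdown and 19.7 and 18.4 CPM in shControl, and Grin2b, an NMDA receptor subunit of embryonic neurons, 6.65 and 5.60 CPM in the triple knockdown and 3.76 and 7.80 CPM in shControl. The medians were -0.15 for metabotropic glutamate receptors, -0.18 for GABA-A receptors, -0.28 for delta receptors and cerebellins, and -0.35 for calcium channel subunits. Of the most abundant genes of these lists, Grm5 had a log2 fold change of 0.00, Gabra2 one of -0.12, Cbln2 one of -0.44, and Cacnb3, a channel beta subunit, one of -0.62; Cacnb3 was past the threshold in 1 of 10 alternatives. Adarb1, which edits the Gria2 codon shown above, had 2.40 and 2.47 CPM in the triple knockdown and 2.78 and 3.45 CPM in shControl (log2 fold change -0.34, SE 0.32, edgeR adjusted p = 0.739). The median of the 3 editing enzymes was -0.27.

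**Figure D5:**
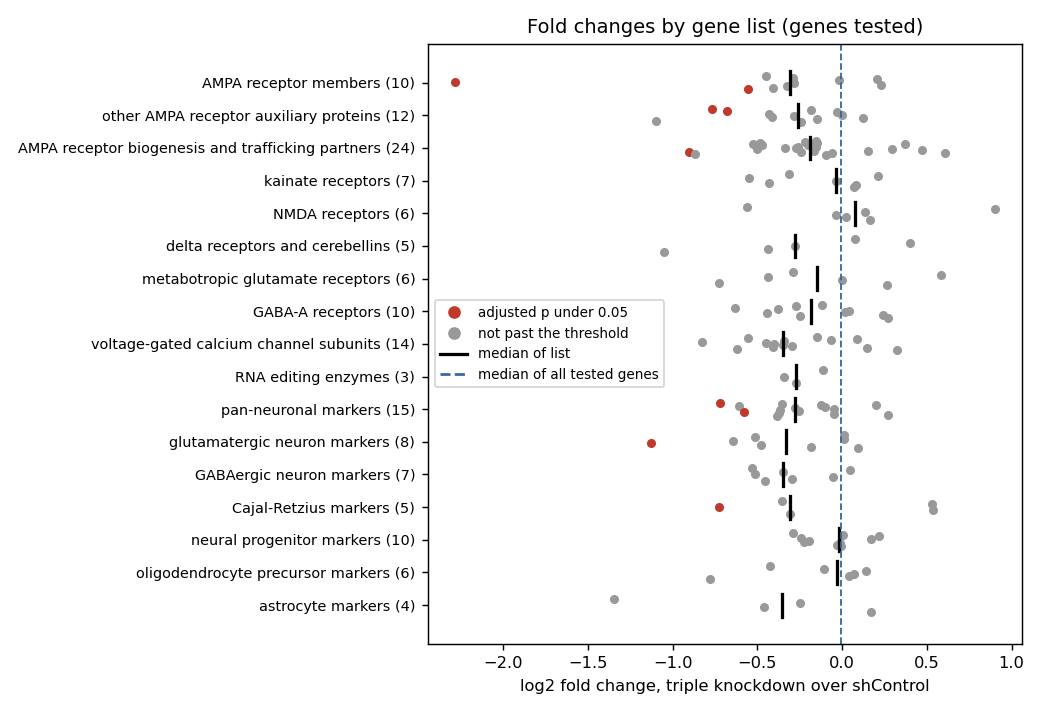
Log2 fold changes, triple knockdown over shControl, of every tested gene in 17 lists, with each list's median (black bar), the median of all tested genes (dashed line) and genes past the threshold in red. The medians of the AMPA receptor lists and of most neuronal marker lists lie between -0.35 and -0.19. So do those of delta receptors and cerebellins, calcium channel subunits and RNA editing enzymes. The astrocyte median is lower, at -0.36. Those of kainate, NMDA, progenitor and oligodendrocyte precursor genes lie between -0.04 and 0.08.

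In CPM, summed levels of neuronal markers were lower in the same libraries. The summed level of 15 pan-neuronal markers was 786 and 819 CPM in the triple knockdown and 1024 and 946 CPM in shControl. Their median log2 fold change was -0.28. Of the 15, 2 were lower (Tubb3 and Celf4) and 13 were not past the threshold, where 0.826% of all tested genes were lower. These sums use TMM factors, which the TPM-like scale does not. On that scale Gap43, the most abundant of the 15, had 158 and 177 in the triple knockdown and 213 and 157 in shControl. Its groups overlapped, as did those of Stmn2 (63.9 and 57.3 against 76.2 and 59.1). Those of Tubb3 did not (45.2 and 41.9 against 82.2 and 50.9). The sums of 8 glutamatergic markers were 52.8 and 56.0 CPM in the triple knockdown and 84.9 and 78.3 CPM in shControl. Of the 8, 1 was lower, Neurod6 (log2 fold change -1.12, edgeR adjusted p = 7.93e-07). Much of the difference in the sums was Neurod6, with 14.3 and 17.4 CPM in the triple knockdown and 39.3 and 29.3 CPM in shControl. Log2 fold changes were below 0 for 5 of the 8 and above 0 for 3. Sums of 8 GABAergic markers were 67.0 and 69.6 CPM in the triple knockdown and 90.3 and 82.3 CPM in shControl. Of 7 tested, 6 were below 0 and 1 above it, and 0 passed edgeR's test. At an unadjusted p under 0.05, 3 were lower, and DESeq2 and limma-voom called 0. Dlx1, the most abundant, overlapped on the TPM-like scale (6.92 and 6.53 against 9.24 and 6.54). Sums of 6 Cajal-Retzius markers were 39.4 and 41.6 CPM in the triple knockdown and 60.9 and 57.3 CPM in shControl. Most of this difference was Calb2, the 1 gene called lower (-0.73). It had 21.9 and 24.7 CPM in the triple knockdown and 42.5 and 34.2 CPM in shControl. Of 5 tested Cajal-Retzius markers, 3 were below 0 and 2 above it, Trp73 (0.53) and Lhx5 (0.54). For these 2, both triple knockdown libraries lay above both shControl libraries, as for 19.6% of all tested genes, and neither was past the threshold. Both had low counts. Trp73 had 16 and 11 counts in the triple knockdown and 12 and 7 in shControl. Lhx5 had 1.703 and 1.692 CPM in the triple knockdown and 0.789 and 1.651 CPM in shControl. Sums of 6 oligodendrocyte precursor markers were 98.8 and 92.3 CPM in the triple knockdown and 103.8 and 97.0 CPM in shControl. Sums of 10 progenitor markers were 20598 and 23288 CPM in the triple knockdown and 22954 and 28013 CPM in shControl. Nearly all of this was Fabp7, a fatty acid binding protein of radial glia, with 20074 and 22739 CPM in the triple knockdown and 22417 and 27526 CPM in shControl. The median log2 fold change of the 10 was -0.02, and 0 passed edgeR's test (1 lower at an unadjusted p under 0.05, and 0 in DESeq2 and limma-voom). Astrocyte markers (6 genes) summed to 81.4 and 83.1 CPM in the triple knockdown and 118 and 105 CPM in shControl. Most of this was Aldoc, with 71.4 and 71.25 CPM in the triple knockdown and 104.7 and 91.5 CPM in shControl. Of 4 tested astrocyte markers, 3 were below 0 and 1 above it, with a median log2 fold change of -0.36. In edgeR's test 0 passed (2 lower at an unadjusted p under 0.05, and 0 in DESeq2 and limma-voom). Microglial markers (8 genes) summed to 22.9 and 19.9 CPM in the triple knockdown and 14.3 and 21.1 CPM in shControl. Endothelial and mural markers (6 genes) summed to 7.29 and 7.55 CPM in the triple knockdown and 6.73 and 8.56 CPM in shControl. Over 10 marker lists, 4 of 67 tested genes were lower and 0 higher in edgeR's test, beside 0.826% and 0.541% of all tested genes. DESeq2 called 3 lower and limma-voom 4. Over 10 alternatives the log2 fold change ran from -0.90 to -0.49 for Tubb3 and from -0.65 to -0.49 for Celf4. That of Calb2 ran from -0.86 to -0.56. None of the marker genes was at 0 in every library. Their part in the differences of the AMPA receptor genes was not tested.

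The fold changes can be set against the pan-neuronal median of -0.28. The 15 markers themselves ran from -0.72 to 0.27, and of the 10 genes only Shisa6 lay outside that range. The log2 fold change of Gria2 differed from that median by -0.01, that of Shisa9 by -0.01 and that of Cacng4 by -0.04. Nsg1 lay below it by -0.13, Gria1 by -0.17, Nsg2 by -0.28 and Shisa6 by -2.01. Gria4 lay above it by 0.26, Gria3 by 0.49 and Cacng2 by 0.51. These differences were not tested, and for most of the genes they were close to or below the SE of the gene's own fold change.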

How the data were processed

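RNA from 4 libraries, 2 per group, was sequenced. The authors deposited estimated counts per gene, not normalized; per the submitters' processing notes they came from Salmon with GRCm38 and mm10, and no source used here gives version, annotation release or strand setting. These deposited estimated counts, of which 23.1% to 25.1% per library were not whole, were rounded. The library kit, per the labels' protocols, was NEBNext Ultra II RNA, used on total RNA.

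Identifiers were matched without version to GENCODE M21, which named 34582 of 34866. Genes were tested with edgeR 4.0.16 (R 4.3.3): TMM factors, filterByExpr with a minimum count of 10 (14050 genes kept), a robust quasi-likelihood F test, two-sided, with Benjamini-Hochberg adjustment over all tested genes and a threshold of 0.05. The SE is the size of the log2 fold change divided by the square root of F. The pipeline was tested on simulated data. Alternatives were DESeq2 1.42.0, limma-voom (limma 3.58.1), library-size scaling, other filters, a replicate block and leaving out each library. An exact test of 2 against 2 libraries could not pass the threshold and was not used. Gene lists and the 10 genes were chosen with earlier results of these data known. Of every other list, the genes named were those past the threshold (up to 4 by smallest p) or else the 3 most abundant. Prrt2, Cpt1c, Caly, Cnih3, Gsg1l, Syndig1, Dlg4, Grip1, Stx18, Gap43, Stmn2, Trp73 and Lhx5 were named after their values were seen.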

Additional observations from a re-analysis of the deposited data

How the results depend on the processing

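Of the 10 genes, Shisa6 and Nsg2 were lower past the threshold, and the number so called was 1 with scaling by library size alone, 1 in DESeq2 and 0 to 2 when a library was left out. The number of genes lower among the receptor, channel and trafficking lists, 3 in the reported fit, was 0 with library size alone and 0 to 5 when a library was left out. Over all genes, DESeq2 called 30 higher and 39 lower and library-size scaling 28 lower; leaving out a library gave 27 to 280 higher and 17 to 334 lower. Library-size scaling moved the median of all genes by 0.08 on the log2 scale. The cause of these changes was not tested. The mean Gria2 share was 75.4% (triple knockdown) and 77.9% (shControl) with the longest coding transcript, and 85.5% and 87.1% with no length correction. In 10 alternatives each, 9 of the 10 genes kept their direction; Gria4 was below 0 in 6 and above 0 in 4. Same-numbered libraries did not deviate together (r = -0.06 over 14050 genes), and a replicate block, with 75 higher and 97 lower genes and 2 of the 10 genes lower, changed neither call among the 10. Depth limits Shisa6 and Shisa9 most among the 10, with 13 and 41 summed counts in the triple knockdown and 64 and 51 in shControl.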

Other observations

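Cacng7 lies beside Cacng8 and Cacng6 on chromosome 7 (3332955 to 3368221, 3390683 to 3415648 and 3424195 to 3435667 in GRCm38). Cacng8, another TARP gene, was not called and had 2.82 and 4.16 CPM in the triple knockdown and 3.85 and 4.05 CPM in shControl (log2 fold change -0.19, SE 0.27, edgeR adjusted p = 0.859). Cacng6, which belongs to the calcium channel gamma subunits and is no TARP, had 0 and 0 counts in the triple knockdown and 0 and 1 in shControl. On chromosome 11, Cacng4 has Cacng5 and Cacng1 as neighbours, and these had at most 12 and at most 3 counts in a library. The difference between neighbouring genes was not tested.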
